A study of Mus musculus with 24 samples.

Results

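The nuclear-encoded subunits of the mitochondrial respiratory chain were measured in mouse tumours that grew from grafted CT26.WT cells, which derive from a Balb/c colon carcinoma. Members were chosen by name, as every gene whose symbol begins with Ndufa, Ndufb, Ndufc, Ndufs, Ndufv, Uqcr, Cox4 to Cox8 or Atp5, together with Sdha, Sdhb, Sdhc and Sdhd, and without -ps in the symbol. This gave 97 of the 55202 genes in the table. They comprise 39 genes of complex I, 4 of complex II, 8 of complex III, 21 of complex IV, 17 of complex V and 8 complex I assembly factors that the Ndufa prefix brings in. Of the 97 members, 96 had a count in at least 1 library and were tested, and 87 had a mean deposited value of at least 8 on the log2 scale. The remaining member, Cox7b2, a testis form of a complex IV subunit, was at 0 in every library. Ndufa4 and its paralog Ndufa4l2 were placed in complex IV, where the Ndufa4 protein is now known to reside. The annotation lists 4 members (Ndufs6b, Ndufb4c, Ndufa11b and Cox6c2) as processed pseudogenes.

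The study grafted these cells into male mice of immunocompetent Balb/c or immunodeficient NSG background and fed each host a diet with 0.172% methionine, the restricted diet, or 0.86% methionine, the high diet, for 3 to 4 weeks. The 4 groups were therefore Balb/c hosts on 0.172%, Balb/c hosts on 0.86%, NSG hosts on 0.172% and NSG hosts on 0.86% methionine, with 6 libraries each, and the labels call every animal wild-type. NSG mice lack mature T, B and NK cells, and they differ from Balb/c in strain as well, so host genotype and host immunity cannot be told apart. All grafts come from 1 cell line, RNA was taken from whole tumours, and host cells contribute to every value. In bulk tissue, fewer cells of a kind and less RNA per cell cannot be told apart.

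Assigned counts ranged from 31339425 to 57162217 per library. In the Balb/c group on 0.86% methionine, library 19 was nearly identical to library 23 (correlation 0.9987) and library 20 to library 24 (0.9981), while none of the other 274 pairs exceeded 0.9921. Both pairs differed by little more than sampling noise, so each entered as the mean of its libraries and n was 4 in that group and 6 elsewhere, 22 tumours in all. The labels do not say that each library is a separate animal, so the p-values measure the spread between these samples. Epithelial markers of the graft were uneven. Epcam, an epithelial surface protein, ranged from 0 to 77.0 normalised counts, while Krt18, a keratin of simple epithelia, ranged from 371.9 to 2140. The 5 graft markers listed summed to 599.2 to 31160 in Balb/c on 0.172% and 1782 to 3429 in Balb/c on 0.86%. In NSG hosts they summed to 999.2 to 9593 on 0.172% and 1163 to 3557 on 0.86%.

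Complex I takes electrons from NADH and complex II takes them from succinate, both pass them to ubiquinone, complex III hands them on to cytochrome c and complex IV to oxygen. Complexes I, III and IV pump protons while doing so, and complex V, the ATP synthase, lets the protons return to make ATP. Complexes I, III, IV and V also contain 13 subunits encoded by mitochondrial DNA, so the nuclear genes have to be matched with a second genome, and several complex IV subunits exist as a common form and a tissue form used in muscle, lung or testis.

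Promoters of many of these genes are known to share binding sites of the factors NRF1, GABP, ERR alpha and YY1, which are described here only as letters. RefSeq promoter windows of 300 bases (250 before and 50 after the transcript start, assembly GRCm38.p6) were at hand for 75 members, as 80 windows. The letters CGCANGCG, the core of an NRF1 site, stood on either strand in 32 of the 80 windows (40%), against 8.2% of all 32851 windows and 17.8% of the 10321 windows that belong to expressed genes (mean log2 value of 8 or more). CCGGAAG, an ETS-type site, stood in 23.8% of the members' windows, against 8.9% of all windows and 19.2% of those of expressed genes. AAGGTCA, a half-site for ERR alpha and related receptors, stood in 10% against 4.7% of all windows and 3.1% of those of expressed genes. ANATGGC, the core of a YY1 site, stood in 30% against 15.1% and 15.6%, and TATAAA, the TATA box, in 11.2% against 13.6% and 6.9%. A match is only a run of letters in the window and not a measured binding site. The 4 windows below belong to members whose groups did not overlap in a comparison described further on, namely Atp5md, Atp5j2 and Cox7b for diet in NSG hosts and Sdhb for host on 0.86% methionine. Each is given 5' to 3' on the gene's strand, with matches to the 5 motifs in capitals on whichever strand they lie.
Atp5md (chr19:47090598-47090897, minus strand): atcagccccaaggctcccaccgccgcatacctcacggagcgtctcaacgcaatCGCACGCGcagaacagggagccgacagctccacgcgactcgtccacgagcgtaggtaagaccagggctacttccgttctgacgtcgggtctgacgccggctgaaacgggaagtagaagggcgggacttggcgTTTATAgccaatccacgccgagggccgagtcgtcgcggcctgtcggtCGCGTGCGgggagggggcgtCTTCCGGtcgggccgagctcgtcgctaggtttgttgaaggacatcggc
Atp5j2 (chr5:145191492-145191791, minus strand): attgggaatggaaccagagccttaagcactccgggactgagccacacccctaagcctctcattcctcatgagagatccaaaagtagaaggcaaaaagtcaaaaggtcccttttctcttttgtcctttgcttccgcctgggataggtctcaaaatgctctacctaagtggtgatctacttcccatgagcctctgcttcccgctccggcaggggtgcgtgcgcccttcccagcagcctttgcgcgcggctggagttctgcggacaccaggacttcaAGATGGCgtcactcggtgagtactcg
Cox7b (chrX:106015450-106015749, plus strand): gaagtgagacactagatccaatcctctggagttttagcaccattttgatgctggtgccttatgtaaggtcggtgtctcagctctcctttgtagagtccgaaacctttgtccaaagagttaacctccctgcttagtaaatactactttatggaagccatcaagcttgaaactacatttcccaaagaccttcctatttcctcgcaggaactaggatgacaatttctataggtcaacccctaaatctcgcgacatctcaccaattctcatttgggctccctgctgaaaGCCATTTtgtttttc
Sdhb (chr4:140961021-140961320, plus strand): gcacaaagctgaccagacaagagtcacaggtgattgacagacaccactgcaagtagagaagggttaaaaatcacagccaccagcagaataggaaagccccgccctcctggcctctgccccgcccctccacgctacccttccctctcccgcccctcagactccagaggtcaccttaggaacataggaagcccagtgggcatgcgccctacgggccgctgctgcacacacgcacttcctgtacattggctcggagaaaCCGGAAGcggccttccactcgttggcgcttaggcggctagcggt
The Atp5md window holds CGCANGCG at 2 places, CCGGAAG and TATAAA, the Atp5j2 and Cox7b windows hold ANATGGC downstream of the transcript start, and the Sdhb window holds CCGGAAG, also downstream of it. No 2 matches overlap in these windows.

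Expression of the members was high and followed the complexes. Per kilobase of the median coding transcript, the median member of complex V had 7130 normalised counts, of complex IV 5490, of complex III 4650, of complex II 3190 and of complex I 2480. Atp5b, the catalytic beta subunit of the ATP synthase, was highest at 26200 per kilobase, followed by Cox4i1, the common form of complex IV subunit 4, at 13600. Within complex I, levels per kilobase ran from 210.0 for Ndufb2 to 6080 for Ndufa6, both accessory subunits. The lower ends for complex I (Ndufb2) and complex V (Atp5g1) go with unusually long median transcripts in the annotation, 2413 and 2675.5 bases. The upper end for complex I (Ndufa6) goes with a short one, 382 bases, and the medians used for Ndufs1 and Uqcrc1 were 651 and 533 bases. A level per kilobase shifts with the length used, so the order of genes and of complexes is approximate. The 8 assembly factors lay lower, between 183.0 per kilobase for Ndufaf6 and 999.0 for Ndufaf2. In the share of all normalised counts, the 96 members took 0.788% ± 0.0505 (SD, n = 22 tumours), of which complex V took 0.345% ± 0.0214. The 13 mitochondrially encoded subunits alone took 2.53% ± 0.425.

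**Figure D1:**
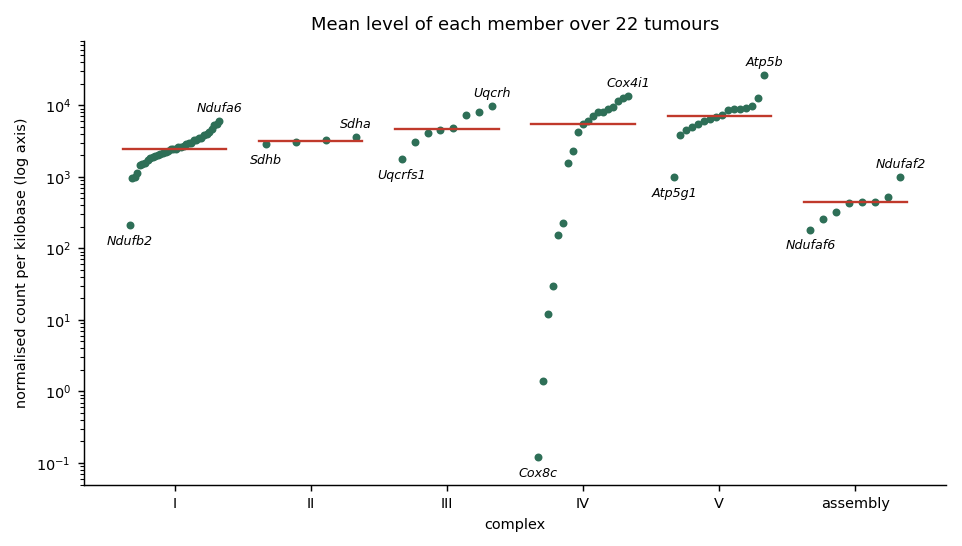
Mean level of each member over 22 tumours, as normalised count per kilobase of the median coding transcript on a log axis, by complex; red bars are medians. Complex V has the highest median at 7130, complex IV spans the widest range, with its tissue forms at the bottom, and Cox7b2 at 0 and 5 members without a length are not drawn.

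Between tumours of 1 group the subunits varied little. The median standard deviation within groups was 0.163 on the log2 scale over the 80 subunits of complexes I to V with a mean of at least 8, and 0.184 over all 11510 genes with such a mean. Complex II was the steadiest with a median of 0.127, and the 13 mitochondrially encoded transcripts varied more, with a median of 0.307. Ndufa4l2, a hypoxia-inducible paralog of Ndufa4, stood apart among the members with 1.337.

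The tumour made of libraries 19 and 23 (tumour 19, Balb/c on 0.86%) differed from all others and touches every comparison with its group. Its 80 subunits lay 0.416 above their mean over tumours as a median, on the log2 scale, while the other 3 tumours of its group lay at -0.028, -0.088 and -0.208. In the other 18 tumours this median ran from -0.033 to 0.089 in Balb/c on 0.172%, from -0.075 to 0.198 in NSG on 0.172% and from -0.176 to -0.025 in NSG on 0.86% methionine. For 55 of the 80 subunits (68.8%) tumour 19 was the highest of 22, as it was for 16.7% of the 11510 genes. Every complex took part, with medians of 0.415 for complex I, 0.386 for complex II, 0.430 for complex III, 0.483 for complex IV and 0.369 for complex V. Sdha, the flavoprotein of complex II, was not raised and lay 0.09 below the mean of the other 3 tumours of the group, as a difference of -0.09. Ndufa4l2 lay 3.85 above it, the largest such difference among the 11510 genes. The mitochondrially encoded transcripts of tumour 19 lay at -0.251. Markers of some other cells were also high there. The 6 endothelial markers summed to 9903 normalised counts in tumour 19 and to between 2023 and 6082 in the other 21 tumours, the 7 fibroblast and pericyte markers to 183800 against 49430 to 133000, the 5 red blood cell markers to 43700 against 2791 to 16190, and the 5 neutrophil markers to 8200 against 115.8 to 706.6. The 12 hypoxia and glycolysis genes summed to 386200 against 141000 to 330900. The adipocyte sum also ranked 1 of 22. Other sums were less extreme, ranking 3 for B cell, 5 for macrophage and T cell, 6 for mast cell and 7 for NK and cytotoxic markers. Those of graft epithelium ranked 9 and of skeletal muscle 10. Among mitochondrial lists, uncoupling genes ranked 1, assembly factors and membrane housekeeping genes 2, and electron carriers 6. TCA cycle genes ranked 13 and regulators of biogenesis 22. The part of these cells and genes in the subunit levels was not tested. The main results for Balb/c on 0.86% are given with and without this tumour.

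**Figure D2:**
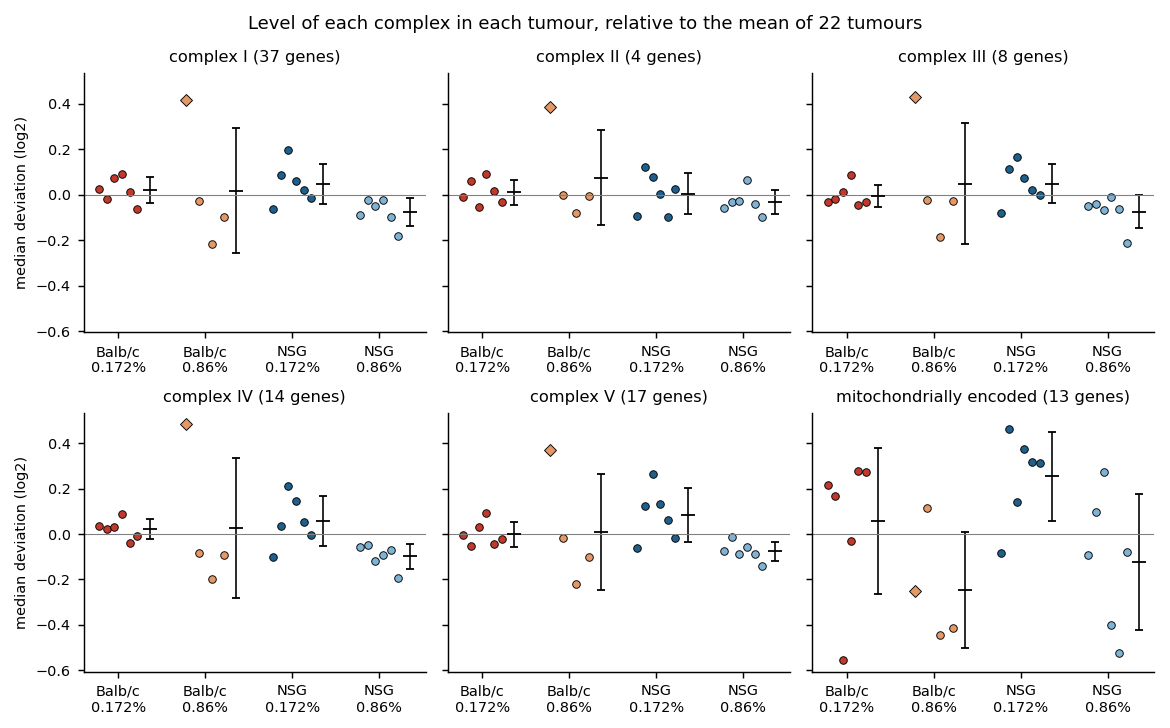
Median deviation of the members of each complex, and of the 13 mitochondrially encoded subunits, from each gene's mean over 22 tumours (log2 scale); points are tumours, the diamond is tumour 19, and bars give the group mean and SD beside the points. Tumour 19 stands at 0.369 to 0.483 in complexes I to V and at -0.251 for the mitochondrially encoded genes, and NSG tumours on 0.172% tend to lie above those on 0.86% in complexes I, III, IV and V.

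The first comparison asked how the restricted diet changed these genes in tumours of NSG hosts. No member passed the threshold (limma, adjusted p below 0.05 over 38019 genes), where 0.00526% of all genes did, and the smallest adjusted p among members was 0.483. Small differences in 1 direction were nonetheless common. Of the 96 members 84 were higher on 0.172% than on 0.86% methionine, with a median difference of 0.125 on the log2 scale. Among the 87 members with a mean of at least 8, 80 (92.0%) were higher with a median of 0.129, while 53.1% of the 11510 genes were higher with a median of 0.012. The members were measured in the same tumours and are not independent of each other. An unadjusted p below 0.05 was reached by 18 members, of which 17 were higher, against 9.8% of the 11510 genes. That number rests on single tumours, as it was 8 without tumour 3, 12 without tumour 12 and 26 without tumour 1. It was 30 without tumour 19, a Balb/c tumour that enters this comparison only through the spread shared by the 4 groups. With the NSG groups fitted alone no member was called, and 10 genes were called over all. The share of the 11510 genes was 7.26% without tumour 3, 6.94% without tumour 12, 11.7% without tumour 1 and 13% without tumour 19. In the fits that leave out 1 NSG tumour the median difference over members lay between 0.101 and 0.142. Leaving out a Balb/c tumour cannot change this median. Of the markers of other cells, 0 of 8 macrophage, 0 of 6 endothelial, 0 of 6 adipocyte and 0 of 5 red blood cell markers were higher on 0.172%. None of these had an unadjusted p below 0.05 (limma). Other lists differed, with 5 of 6 NK and cytotoxic, 4 of 5 neutrophil and 3 of 4 mast cell markers higher. So were 4 of 9 T cell, 2 of 4 B cell, 3 of 8 skeletal muscle and 2 of 7 fibroblast and pericyte markers. The 6 NK and cytotoxic markers summed to only 1.85 to 10.2 normalised counts in NSG on 0.172% and 0 to 3.65 in NSG on 0.86%. The 9 T cell markers summed to 17.5 to 104.6 and 34.25 to 84.9. With so few counts the directions in these 2 lists say little. The part of these cells in the result was not tested.

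Complex V carried the largest median difference for diet in NSG hosts, 0.169 with 17 of 17 genes higher. Complex III followed with 0.121 (8 of 8 higher), the assembly factors with 0.120 (7 of 8), complex I with 0.107 (36 of 39) and complex IV with 0.107 (14 of 20). The 6 complex IV genes that were not higher were the tissue forms Cox4i2, Cox6a2, Cox6b2, Cox8b and Cox8c and the gene copy Cox6c2. Of these, Cox6b2, Cox8b and Cox8c had at most 16, 4 and 1 counts in any library. Complex II, which is also the succinate dehydrogenase of the TCA cycle, had 0.005 (2 of 4). Groups did not overlap for 5 of the 87 members, all higher on 0.172%, where 1.53% of the 11510 genes had groups apart in either direction.

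Atp5g1 encodes a copy of the c subunit that forms the rotating ring of complex V, and it had the smallest p of the members. It ranged from 2426 to 3205 normalised counts (median 2921) in NSG on 0.172%, against 2063 to 2572 (median 2335) in NSG on 0.86% methionine. Of the 6 restricted tumours 5 lay above all high-diet tumours, and the difference was 0.31 ± 0.09 on the log2 scale (SE, limma adjusted p = 0.483). The other ring genes encode the same mature protein, and reads in their shared stretches can be split between copies. Atp5md, a small membrane subunit that helps ATP synthase dimers form, ranged from 2308 to 2725 (median 2608) in NSG on 0.172% and from 1841 to 2278 (median 2078) in NSG on 0.86%. Its groups did not overlap, and it differed by 0.30 ± 0.10 (limma adjusted p = 0.612). Atp5j2, subunit f of the membrane part, ranged from 4486 to 6661 (median 4918) in NSG on 0.172%, against 3701 to 4413 (median 4247) in NSG on 0.86%. Its difference was 0.28 ± 0.10 (limma adjusted p = 0.633), again without overlap.

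Cox7b is an accessory subunit of complex IV encoded on the X chromosome. Its normalised counts were 4145 to 4800 (median 4579) in NSG on 0.172% and 3319 to 3913 (median 3814) in NSG on 0.86%, without overlap, and the difference was 0.26 ± 0.085 (limma adjusted p = 0.612). Ndufa4 had the largest difference of the well-detected members, 0.42 ± 0.14 (limma adjusted p = 0.617), from 3518 to 5470 (median 4295) in NSG on 0.172% and from 2619 to 3518 (median 3422) in NSG on 0.86%. The lowest tumour on 0.172% and the highest on 0.86% both had 3518 when rounded, so these groups barely separate. Ndufv2, a core subunit of complex I that carries an iron-sulphur cluster, completed the members without overlap, with 2824 to 3248 (median 2958) in NSG on 0.172% and 2522 to 2808 (median 2714) in NSG on 0.86%. Its difference was 0.17 ± 0.09 (limma adjusted p = 0.795). Against the general direction stood Cox6a2, the muscle form of complex IV subunit 6a, with a difference of -0.84 ± 0.31 (limma adjusted p = 0.646).

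Further members with the largest differences in their complex for diet in NSG hosts are given here. Sdhb, the iron-sulphur subunit of complex II, ranged from 3083 to 3598 (median 3364) in NSG on 0.172% and from 2764 to 3195 (median 3069) in NSG on 0.86%, a difference of 0.16 ± 0.08 (limma adjusted p = 0.770) with 5 of 6 tumours on 0.172% above all on 0.86%. Sdhc, a membrane anchor of complex II, had -0.06 ± 0.105 (limma adjusted p = 0.934). Cox8a, the common form of complex IV subunit 8, ranged from 5822 to 7637 (median 7108) in NSG on 0.172% and from 5021 to 6670 (median 5491) in NSG on 0.86%, a difference of 0.30 ± 0.13. Ndufa3 and Ndufa5 of complex I differed by 0.26 ± 0.12 and 0.23 ± 0.12, and Uqcr11 and Uqcr10 of complex III by 0.26 ± 0.11 and 0.20 ± 0.10. In each of Ndufa3, Uqcr11 and Uqcr10, 5 of the 6 tumours on 0.172% lay above all tumours on 0.86%. The core subunits of the panel gave these differences. Ndufs1, an iron-sulphur subunit of complex I, differed by 0.01 ± 0.07, Ndufv1, which binds NADH, by 0.07 ± 0.09, Uqcrc1, a core protein of complex III, by 0.10 ± 0.06, and Uqcrfs1, its Rieske iron-sulphur protein, by 0.11 ± 0.07. The complex IV subunits Cox5a and Cox5b differed by 0.12 ± 0.09 and 0.10 ± 0.08. No adjusted p among these 13 members was below 0.73 (limma).

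**Figure D3:**
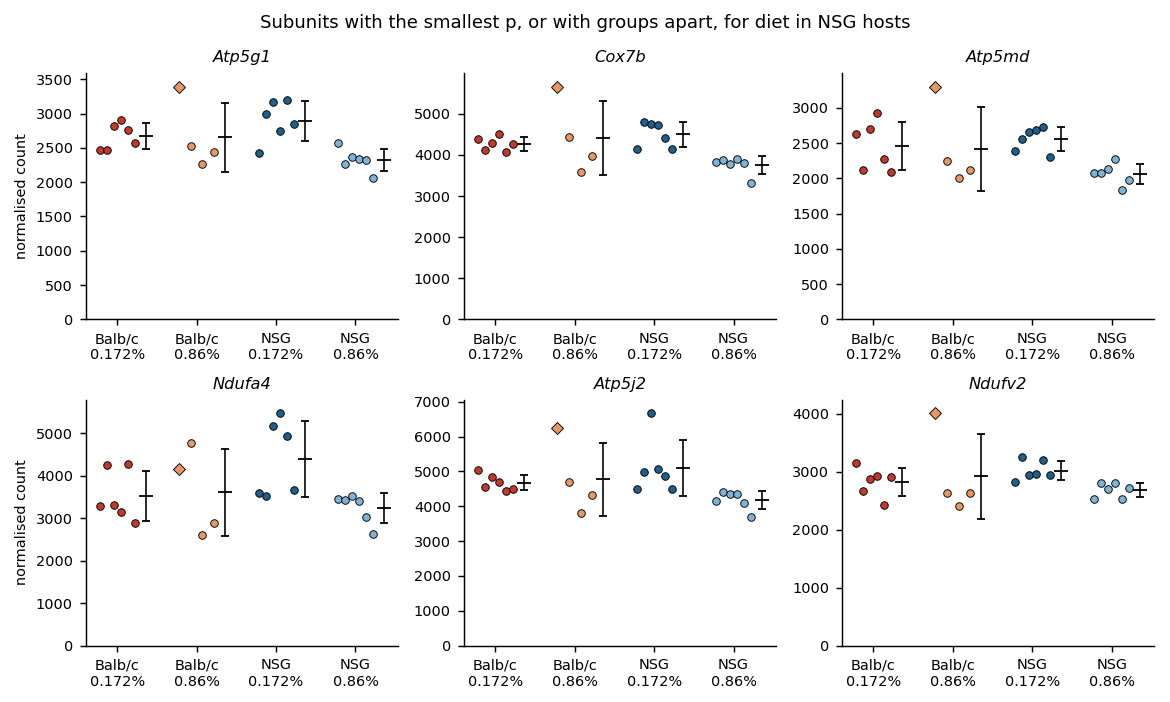
Normalised counts of Atp5g1 and of the 5 members whose NSG groups did not overlap, in 22 tumours; points are tumours, the diamond is tumour 19, bars are group mean and SD, and axes start at 0. In the 5 genes other than Atp5g1 all NSG tumours on 0.172% lie above those on 0.86%, by margins that are small beside the counts; for Atp5g1, 5 of 6 do. Also, the 4 Balb/c tumours on 0.86% are spread by tumour 19.

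The same diet comparison in Balb/c hosts gave no call and no common direction. Of the 96 members 42 were higher and 54 lower on 0.172% than on 0.86% methionine, with a median of -0.010, and none reached even an unadjusted p of 0.05. Over all genes 0.00263% were called, 9.68% of the 11510 genes with a mean of at least 8 had an unadjusted p below 0.05, and 1.3% had groups that did not overlap, which no member had. Complex medians lay between -0.075 for complex II and 0.005 for complex I. Without tumour 19 the picture changed direction, although still without a call. Then 81 of 96 members were higher on 0.172%, the median was 0.118, and 17 members (17.7%) had an unadjusted p below 0.05, as had 12.7% of the 11510 genes in the same fit. Without tumour 21 of the same group, the median was -0.081 and 20 of 96 members were higher. The medians without tumour 19 were 0.139 for complex I, 0.022 for complex II, 0.135 for complex III, 0.108 for complex IV and 0.123 for complex V. The median over the 11510 genes was 0.018 with all tumours and 0.015 without tumour 19. With all tumours 0 of 6 endothelial, 0 of 8 macrophage, 0 of 6 adipocyte and 0 of 5 red blood cell markers were higher on 0.172%. Other lists differed, with 7 of 8 skeletal muscle, 4 of 6 NK and cytotoxic and 2 of 4 mast cell markers higher. So were 2 of 9 T cell, 1 of 4 B cell, 1 of 5 neutrophil and 1 of 7 fibroblast and pericyte markers. The part of these cells was not tested.

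Ndufb9, an accessory subunit of complex I, shows the dependence. It ranged from 2078 to 2575 (median 2221) in Balb/c on 0.172%, and had 1458, 1675, 1879 and, in tumour 19, 2935 in Balb/c on 0.86%. All 6 restricted tumours lay above 3 of the high-diet tumours and below the remaining one. The difference was 0.25 ± 0.13 with all tumours (limma adjusted p = 0.710) and 0.45 ± 0.095 without tumour 19 (limma adjusted p = 0.177). An overlapping gene on the same strand shares part of its sequence, so some of its reads are uncertain. Without tumour 19 the next smallest p-values belonged to Atp5g2, another c subunit gene, with 0.28 ± 0.07, and to Cox6c, an accessory complex IV subunit, with 0.35 ± 0.10.

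The difference between the diet effects of the 2 hosts, Balb/c minus NSG, was tested directly. It had a median of -0.122 over the 96 members, with 77 below 0, and no call, as over all genes, where 0% were called. An unadjusted p below 0.05 was reached by 13 members, against 10.2% of the 11510 genes. Complex V had the most negative median, -0.195, with 16 of 17 genes below 0. The smallest p was that of Cox6a2, with 1.40 ± 0.47 (limma adjusted p = 0.609). Among well-detected members, Cox8a had -0.45 ± 0.19 and Ndufb6, an accessory subunit of complex I, -0.42 ± 0.20 (limma adjusted p = 0.710 and 0.756). Without tumour 19 Cox8a had -0.28 ± 0.17 and Ndufb6 -0.27 ± 0.185. Without tumour 19 the median was -0.007, with 51 of 96 members below 0. Then 6 members had an unadjusted p below 0.05, against 9.52% of the 11510 genes. Without tumour 21 the median was -0.205, with 85 below 0 and no call. Then 23 members had such a p, against 11.6% of the 11510 genes. The size of the difference thus rests on single tumours of 1 group, and these data do not show that the 2 hosts differ in this response.

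Mitochondrially encoded subunits were higher on the restricted diet in both hosts as a median, by 0.384 in Balb/c and 0.386 in NSG hosts, with 13 of 13 genes higher in each. Of the 11510 genes 55.6% were higher in Balb/c and 53.1% in NSG hosts. The 13 genes were measured in the same tumours and are not independent of each other. Without tumour 19 the median in Balb/c hosts was 0.329, again with 13 of 13 higher. None passed the threshold, and the smallest adjusted p were 0.488 in Balb/c and 0.355 in NSG hosts (limma). The diets overlapped between tumours. In Balb/c hosts the median deviation of these genes ran from -0.554 to 0.277 on 0.172% and from -0.443 to 0.113 on 0.86%. In NSG hosts it ran from -0.083 to 0.464 on 0.172% and from -0.525 to 0.272 on 0.86%.

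**Figure D4:**
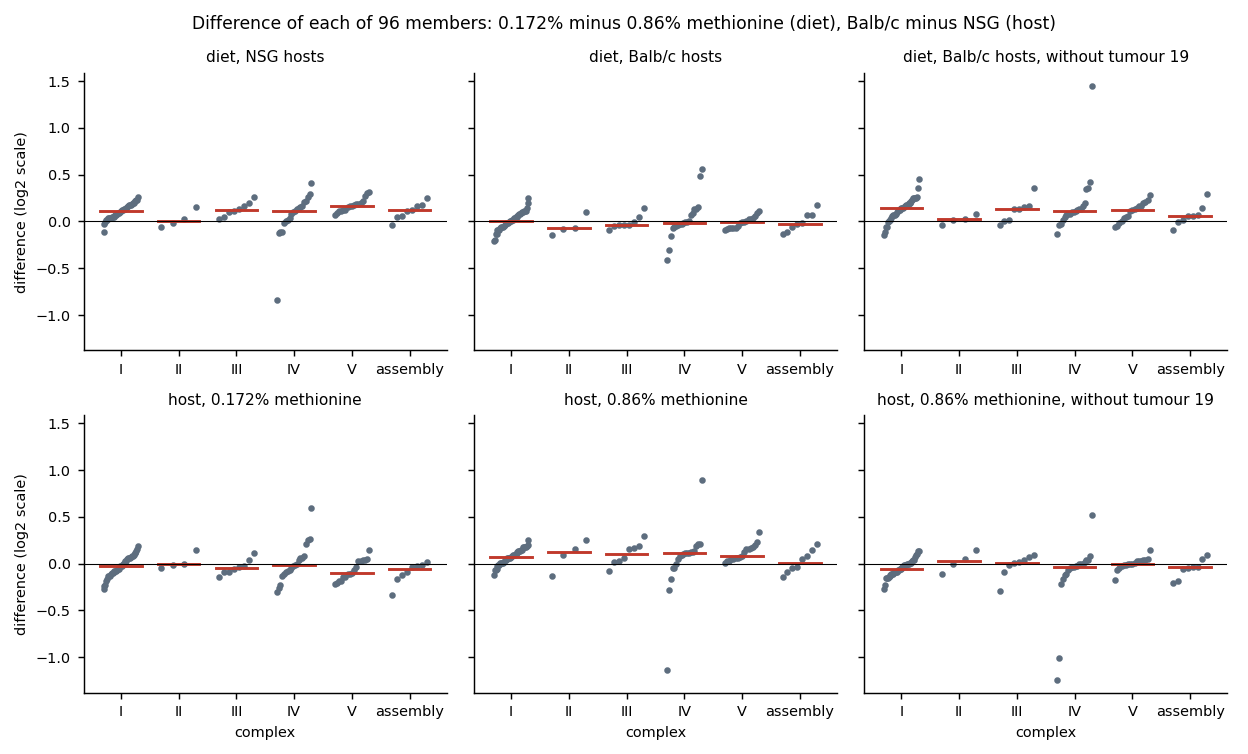
Difference of each of the 96 tested members on the log2 scale, by complex, with red bars at the median; the upper row is 0.172% minus 0.86% methionine in NSG hosts, in Balb/c hosts and in Balb/c hosts without tumour 19, and the lower row Balb/c minus NSG on 0.172%, on 0.86% and on 0.86% without tumour 19. The complex medians of the diet effect in Balb/c hosts lie near 0 with all tumours and between 0.022 and 0.139 for complexes I to V without tumour 19.

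Between hosts on 0.86% methionine, 1 member differed, and it was Cox4i2, which was higher in Balb/c hosts. Over all genes 2.53% were called, 17.5% of the 11510 genes had an unadjusted p below 0.05, as 8 members had, and 6.4% had groups apart. Of the 96 members 77 were higher in Balb/c hosts with a median of 0.084. Complex medians were 0.072 for complex I, 0.124 for complex II, 0.108 for complex III, 0.109 for complex IV and 0.077 for complex V, the last with 17 of 17 genes higher. Without tumour 19 they were -0.053, 0.026, 0.011, -0.030 and -0.006 in the same order, with 8 of 17 complex V genes higher. Without tumour 19, 35 of 96 members were higher and the median was -0.019, so the direction over all members rests on that tumour. No member was then called, beside 527 genes over all. Without tumour 21, 85 of 96 members were higher and the median was 0.152. Then 2 members were called, Atp5mpl and Cox4i2, beside 1111 genes over all. Atp5mpl, a small membrane subunit of complex V, had 1328, 1744, 1870 and, in tumour 19, 2763 in Balb/c on 0.86%, against 1329 to 1635 (median 1452) in NSG on 0.86%, a difference of 0.34 ± 0.13 (limma, adjusted p = 0.215) that was 0.15 ± 0.10 without tumour 19. Uqcrh, the hinge protein of complex III, differed by 0.29 ± 0.13 and Ndufs4, an accessory subunit of complex I, by 0.25 ± 0.11 (limma, adjusted p = 0.354 and 0.330). Without tumour 19 they differed by 0.09 ± 0.11 for Uqcrh and 0.11 ± 0.10 for Ndufs4.

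Cox4i2 encodes the form of complex IV subunit 4 that is known from lung and from cells exposed to low oxygen (chr2:152754173-152765037, plus strand, mm10, a protein-coding gene with no overlapping neighbour). It had 20.96, 24.8, 32.9 and, in tumour 19, 119.6 normalised counts in Balb/c on 0.86%, against 8.88 to 16.4 (median 11.3) in NSG on 0.86% methionine. All 4 Balb/c tumours lay above all 6 NSG tumours. The difference was 0.89 ± 0.21 on the deposited log2 scale, which understates changes of genes with few counts (limma, adjusted p = 0.0157), and 0.52 ± 0.14 without tumour 19 (limma, adjusted p = 0.0565). On 0.172% the 6 Balb/c tumours again lay above the 6 NSG tumours, with 15.8 to 36 (median 26.1) in Balb/c and 7.38 to 11.6 (median 9.55) in NSG. That difference was 0.60 ± 0.19 and missed the threshold (limma, adjusted p = 0.0977), but passed it without tumour 19, when the SE was 0.11 (limma, adjusted p = 0.00252). Vessel markers moved in the same direction, with 5 of 6 endothelial markers higher in Balb/c hosts on each diet. So did other lists, with 6 of 6 NK and cytotoxic, 8 of 9 T cell and 4 of 4 mast cell markers higher on each diet. Fibroblast and pericyte markers were mixed (5 of 7 on each diet), and adipocyte markers went the other way (1 of 6). The 6 endothelial markers summed to 5183 to 9903 in Balb/c on 0.86% and 2086 to 3598 in NSG on 0.86%, and to 2990 to 6082 in Balb/c on 0.172% and 2023 to 3508 in NSG on 0.172%. The part of all these cells in the Cox4i2 result was not tested. Per length, Cox4i2 remained a minor form, 0.429% ± 0.296 (SD, n = 4) of the sum of Cox4i1 and Cox4i2 in Balb/c on 0.86% and 0.127% ± 0.0296 (n = 6) in NSG on 0.86%.

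Cox6a2 went the other way. It had 56.7, 85.3, 95.6 and 102.6 normalised counts in Balb/c on 0.86%, against 157.8 to 377.0 (median 189.8) in NSG on 0.86% methionine, without overlap. The difference was -1.14 ± 0.35 and missed the threshold (limma, adjusted p = 0.103). It passed in the fits of 24 separate libraries and of these groups alone, and without tumour 2 (limma, adjusted p = 0.0268), while without tumour 19 the adjusted p was 0.348. On 0.172% the values were 60.6 to 189.9 (median 149.5) in Balb/c and 26.8 to 215.5 (median 136.7) in NSG, and overlapped widely. The gene lies on chromosome 7 opposite Itgad, an integrin gene, and without settled strandedness their reads cannot be told apart where they overlap. Of the 8 skeletal muscle markers 0 were higher in Balb/c on 0.86% than in NSG on 0.86% (median -0.42), and 7 of 8 were above 0 for the difference of diet effects (median 0.51), the directions of Cox6a2, with none past the threshold. Their part in the Cox6a2 values was not tested. The sum of these markers reached 2067 in tumour 16 (Balb/c on 0.172%), where Cox6a2 had 148.1, and lay between 214.5 and 325.2 in Balb/c on 0.86% and between 225.5 and 1220 in NSG on 0.86%.

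Sdhb, the iron-sulphur subunit of complex II, was the only one of the 87 well-detected members with groups apart between hosts on 0.86%. It had 3216, 3276, 3545 and, in tumour 19, 4517 in Balb/c on 0.86%, against 2764 to 3195 (median 3069) in NSG on 0.86% methionine. The difference was 0.25 ± 0.09 (limma, adjusted p = 0.177), and 0.15 ± 0.08 without tumour 19 (limma, adjusted p = 0.620). The other members of complex II did not share this, with 0.15 ± 0.12 for Sdhc, 0.10 ± 0.09 for Sdhd and -0.13 ± 0.09 for Sdha.

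Between hosts on 0.172% methionine no member passed the threshold, where 2.09% of all genes did. Of the 96 members 35 were higher in Balb/c hosts and 61 lower, with a median of -0.034 beside -0.025 over the 11510 genes. An unadjusted p below 0.05 was reached by 11 members, 9 of the 11 lower, against 20.9% of the 11510 genes. Groups were apart for 2.79% of the 11510 genes and for none of the 87 well-detected members. Complex V had the lowest median, -0.101. Its members with small p-values were Atp5b with -0.19 ± 0.07, Atp5c1, the rotor shaft, with -0.21 ± 0.08, and Atp5d, also of the rotor, with -0.20 ± 0.08 (limma, adjusted p = 0.183, 0.165 and 0.194). Atp5b ranged from 44280 to 53290 normalised counts (median 46410) in Balb/c on 0.172% and from 48140 to 61580 (median 54020) in NSG on 0.172%, with 4 of the 6 Balb/c tumours below all NSG tumours. Ndufaf4, an assembly factor of complex I, differed by -0.34 ± 0.11 (limma, adjusted p = 0.132), and Ndufs8, a core subunit of complex I, by -0.27 ± 0.10 (limma, adjusted p = 0.183).

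Tissue forms of complex IV were minor in all groups except Ndufa4l2. Its normalised counts ran from 137.9 to 3656 (median 1173) in Balb/c on 0.172%, were 220.6, 366.7, 746.6 and, in tumour 19, 6172 in Balb/c on 0.86%, ran from 292.5 to 2212 (median 1323) in NSG on 0.172% and from 395.3 to 2129 (median 938.6) in NSG on 0.86%. The groups overlapped throughout, and the smallest adjusted p of the 5 contrasts was 0.963 (limma). The diet difference in Balb/c hosts was 0.49 ± 0.85 with all tumours and 1.45 ± 0.78 without tumour 19 (limma, adjusted p = 0.684). Per length, Ndufa4l2 was between 1.56% and 42.2% of the sum of Ndufa4 and Ndufa4l2 in single tumours. It lies on chromosome 10 opposite Shmt2, a serine hydroxymethyltransferase gene, with the same limit on strand. Cox7a1, the muscle form of subunit 7a, was a steady 2.83% ± 0.464 of the sum of Cox7a1 and Cox7a2 in Balb/c on 0.172% (SD, n = 6), 2.64% ± 0.563 in Balb/c on 0.86% (n = 4), 2.85% ± 0.566 in NSG on 0.172% (n = 6) and 2.71% ± 0.554 in NSG on 0.86% (n = 6). Cox6b2, a testis form, had at most 15.5 normalised counts in any tumour, and Cox8b, the muscle form of subunit 8, at most 5.44, in tumour 16, which also had the highest muscle markers.

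**Figure D5:**
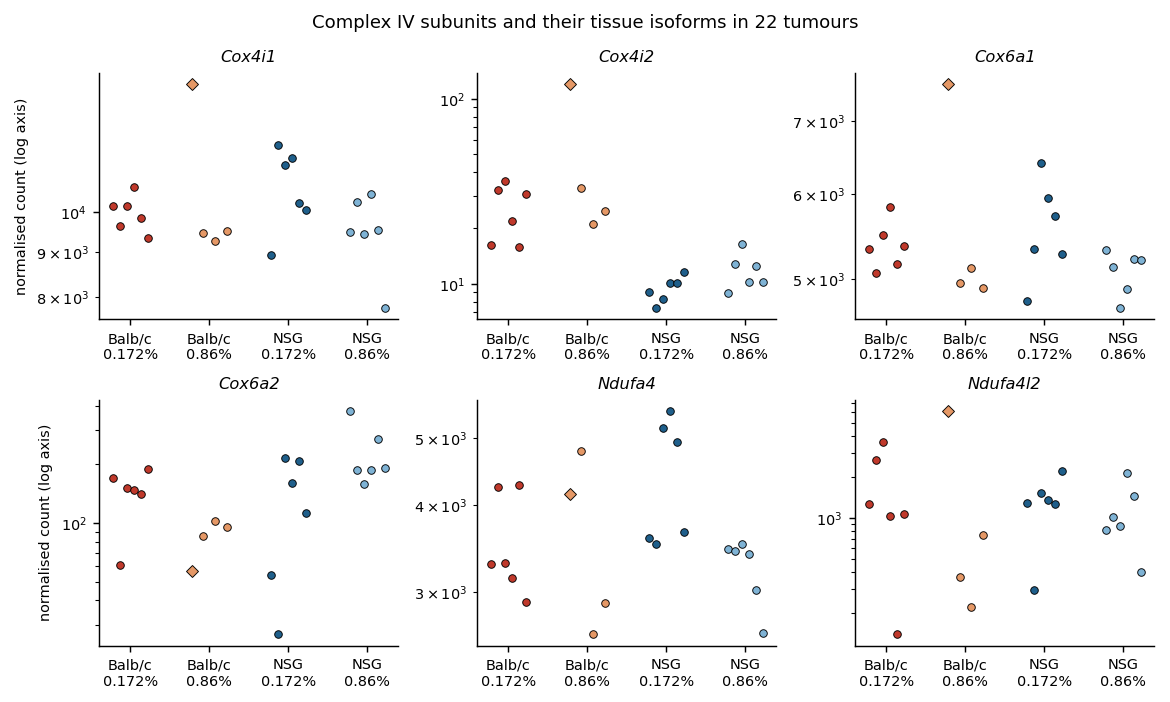
Normalised counts on log axes of 3 complex IV subunits and their tissue forms in 22 tumours; points are tumours and the diamond is tumour 19. Cox4i2 is higher in all Balb/c tumours than in NSG tumours on the same diet, Cox6a2 is lower in Balb/c than in NSG tumours on 0.86%, and Ndufa4l2 varies most between tumours of the same group.

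Genes that work beside the subunits were also mostly higher on 0.172% methionine in NSG hosts, without a call, where 53.1% of the 11510 genes were higher. Of 49 assembly factors of all complexes 36 were higher, with a median of 0.087, of 17 TCA cycle genes 13 (median 0.090), of 18 genes of electron carriers and ubiquinone synthesis 14 (median 0.067), and of 13 genes of mitochondrial membrane housekeeping 12 (median 0.115). Of the 12 hypoxia and glycolysis genes 8 were higher (median 0.127), of 13 regulators of mitochondrial biogenesis 9 (median 0.041), and of 3 uncoupling and alternative genes 1. Dhodh, which feeds electrons from pyrimidine synthesis into ubiquinone, had the smallest adjusted p of these, 0.341, with 0.35 ± 0.09 (limma). Phb, prohibitin of the inner membrane, had 0.28 ± 0.08 (limma, adjusted p = 0.432). In Balb/c hosts 30 of the 49 assembly factors (median 0.047) and 8 of the 17 TCA cycle genes (median -0.012) were higher on 0.172%.

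Between hosts, 3 genes of these lists passed the threshold. On 0.172% they were 1 of 3 uncoupling and alternative genes, 1 of 13 regulators of mitochondrial biogenesis and 1 of 13 membrane housekeeping genes. On 0.86% only 1 of the 3 uncoupling and alternative genes was called. No gene of the other lists was called, and over all genes 2.09% were called on 0.172% and 2.53% on 0.86%. Ucp2, a mitochondrial carrier of the uncoupling protein family that is abundant in immune cells, was higher in Balb/c hosts on 0.86% by 0.84 ± 0.16 (limma, adjusted p = 0.00303) and on 0.172% by 0.58 ± 0.14 (limma, adjusted p = 0.0282). Nrf1, a transcription factor of respiratory genes, was lower in Balb/c hosts on 0.172%, by -0.27 ± 0.06 (limma, adjusted p = 0.0227), and so was Vdac1, the outer membrane channel, by -0.28 ± 0.07 (limma, adjusted p = 0.0421). The calls on 0.172% depended on single tumours. Of the 22 fits that each leave out 1 tumour, 16 called Ucp2, 18 called Nrf1 and 11 called Vdac1, with adjusted p up to 0.087 for Ucp2 and 0.0602 for Nrf1 (both without tumour 14) and 0.114 for Vdac1 (without tumour 4). Of 13 regulators of mitochondrial biogenesis 4 were higher and 9 lower in Balb/c hosts on 0.172%, and 5 were higher and 8 lower on 0.86%.

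Host immune cells differed between hosts in the same samples. The 6 NK and cytotoxic markers summed to 96.8 to 10140 normalised counts in Balb/c on 0.172% and 1.85 to 10.2 in NSG on 0.172%, and to 1375 to 5278 in Balb/c on 0.86% and 0 to 3.65 in NSG on 0.86%. The 8 macrophage markers summed to 25880 to 58170 in Balb/c on 0.172% and 23720 to 42960 in NSG on 0.172%, which overlap, and to 48260 to 65180 in Balb/c on 0.86% and 28550 to 47920 in NSG on 0.86%, which do not. Adipocyte markers summed to 1064 to 1365 in Balb/c on 0.172% and 1487 to 4475 in Balb/c on 0.86%, and to 417.4 to 2414 in NSG on 0.172% and 482.9 to 3809 in NSG on 0.86%. Fabp4, a fatty acid carrier also made by macrophages and endothelium, was the 1 of the 6 adipocyte markers that was higher in Balb/c hosts, and the median marker differed by -0.42 on 0.172% and -0.89 on 0.86%. Of the 5 epithelial graft markers 4 were higher in Balb/c hosts on 0.172% and 2 on 0.86%. On 0.172% 1 was called (limma, adjusted p = 0.0102), where 2.09% of all genes were, and on 0.86% 0 were called. The part of these cells in the subunit differences was not tested.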

How the data were processed

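RNA-seq of 24 libraries from whole tumours was deposited as 1 table of log2 values per gene. Tools listed in the submitters' processing notes are STAR, featureCounts, DESeq2 and the mm10 build, without versions. The deposited log2 values behave like variance-stabilised counts with a floor of 4.0711 at a count of 0. Inverting it gave whole counts for 100% of 640589 values above the floor, within 0.01. These counts, divided by size factors, are the normalised counts printed. The labels name both a stranded kit and a poly(A) kit, so strandedness was not settled. Overlapping genes (41 members) and members sharing over 10% of their 75-base windows with other genes (23 members) are uncertain. 26 lines whose gene names had become dates were left out.

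The deposited log2 values were fitted with limma 3.58.1 (R 4.3.3) as means of 4 groups with trended, robust empirical Bayes moderation. Tests were two-sided with Benjamini-Hochberg adjustment over 38019 genes and a threshold of 0.05, and errors of differences are SE. The fit was tested on simulated data. Contrasts were 0.172% minus 0.86% methionine in each host, the difference of these, and Balb/c minus NSG on each diet. Named members are every called one, the 2 with the largest difference per complex and contrast among those with a mean of at least 8, and a panel of core subunits and isoforms. Ndufv2, Ndufaf4 and Cox6c were added after their values were seen. The members and lists were chosen with earlier results of these data known. Gene models came from GENCODE M21. Alternatives were 9 other settings and leaving out each of 22 tumours.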

Additional observations from a re-analysis of the deposited data

Results flagged for a closer look

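Values far from the rest of their group were found in 10 of 84 groups examined with Dixon's test, where chance flags about 1 in 20. Tumour 19 was the high one of the Balb/c tumours on 0.86% for Cox4i1 (13980 normalised counts), for Cox6a1 (7575), for the median deviation of complex II (0.386) and for that of complex IV (0.483). Tumour 12 was the low one of the NSG tumours on 0.86% for Cox4i1 (7765), for Cox7b (3319), for complex III (-0.213) and for all subunits of complexes I to V (-0.176). Cox6a2 was low in tumour 14 of Balb/c on 0.172% (60.58), and Ndufa4l2 was low in tumour 2 of NSG on 0.172% (292.5).

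The 9 genes with -ps in the symbol were left out by name, and whether each is a pseudogene was not checked. They were not used in any comparison, and all had counts. Their mean normalised counts over 22 tumours were 34.51 for Atp5c1-ps, 40.47 for Atp5k-ps2, 1506 for Atp5l-ps1, 357.9 for Atp5l-ps2, 2141 for Atp5l2-ps, 873.6 for Ndufab1-ps, 1448 for Ndufb1-ps, 124.6 for Uqcrh-ps1 and 33.65 for Uqcrh-ps2.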

How the results depend on the processing

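Counts of called members were small in every setting. On 0.172% methionine, between hosts, 2 members were called with array weights (Cox4i2 and Ndufaf4) and 2 when these groups were fitted alone (Cox4i2 and Cox6c), and leaving out 1 tumour each gave 0 to 1 (1 without tumour 19, Cox4i2). On 0.86% methionine 3 were called with 24 separate libraries (Atp5mpl, Cox4i2 and Cox6a2), beside 1824 genes over all. Leaving out 1 tumour each gave 0 to 2, with 0 without tumour 19 (527 genes over all). It was 2 without tumour 2 (1005 genes over all) or tumour 21 (1111). Fitting these groups alone called Cox6a2 in place of Cox4i2, beside 746 genes over all. The cause was not tested. The median diet difference in Balb/c hosts was 0.088 with array weights and -0.072 with 24 libraries, and the host median on 0.86% was 0.004 and 0.130. Medians per complex and shares of genes without single tumours were computed after seeing the data. The NSG diet median kept its sign in all 9 settings and with each NSG tumour left out, while leaving out a Balb/c tumour cannot change it. No paired analysis was possible because the replicate numbers 1 to 24 are not shared between groups.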
